A study of Homo sapiens with 16 samples.

Results

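The binding landscapes of p53 and CTCF were set side by side in parental MCF10A, a human mammary epithelial cell line that does not form tumours, using the 2 ChIP-seq peak lists of each factor. A peak was kept when it overlapped a peak of the other replicate of the same factor by at least 1 bp. This left 23519 of the 34085 peaks in these 4 lists, and of the 76863 peaks in all 8 lists of the series, which also cover MCF10A cells carrying H-RAS Gv12. For CTCF, 10950 of 11346 peaks of replicate 1 (96.5%) and 10936 of 20136 peaks of replicate 2 (54.3%) were kept, and they merged into 10935 sites. For p53, 816 of 1718 peaks of replicate 1 (47.5%) and 817 of 885 peaks of replicate 2 (92.3%) were kept, and they merged into 816 sites.

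The cells of the p53 samples had received Nutlin before fixation, whereas the labels record no treatment for the CTCF samples. The study's methods also give the factors different antibodies, and different lysis and shearing steps. Every difference between p53 and CTCF below therefore cannot be told apart from these differences in treatment and handling. The study's methods call the 2 replicates of a factor biological, and the labels do not say whether they came from separate cultures.

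CTCF, a protein with an array of zinc fingers, recognises a long, GC-rich motif and, together with cohesin, it holds chromatin loops and insulates neighbouring domains. Its sites are known to be largely shared between cell types. p53 is a stress-activated transcription factor that binds a pair of adjacent half-sites as a tetramer and activates genes of cell cycle arrest, apoptosis and DNA repair. Nutlin blocks the ubiquitin ligase MDM2 from binding p53, so that p53 accumulates without DNA damage.

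The sequences of the strongest sites showed the 2 kinds of target directly. They are reference sequence (GRCh37) at the sites with the best summed rank in both libraries and a motif at the summit, and the motif is in capitals. The CTCF sites are named by the nearest start of a protein-coding gene and lie at chr1:240139805-240139884 (FMN2), chr14:50328934-50329013 (NEMF) and chr1:225662758-225662837 (LBR), all intergenic and written on the plus strand. Intergenic here and below means outside the promoters and bodies of protein-coding genes, so it can include non-coding genes.
CTCF FMN2: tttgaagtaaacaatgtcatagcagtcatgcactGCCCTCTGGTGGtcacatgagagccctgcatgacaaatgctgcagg
CTCF NEMF: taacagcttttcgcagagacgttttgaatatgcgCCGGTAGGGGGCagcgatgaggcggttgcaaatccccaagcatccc
CTCF LBR: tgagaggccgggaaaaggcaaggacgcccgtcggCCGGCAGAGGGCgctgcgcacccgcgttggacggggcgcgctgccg

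The leading p53 sites lay at chr1:244898887-244898966 (nearest start ENSG00000284188), chr1:181104248-181104327 (IER5) and chr17:37203089-37203168 (FBXO47), again all intergenic. A pair of classical target sites is shown with them, at chr6:36644221-36644250 in the promoter of CDKN1A, the cell cycle inhibitor p21, and at chr12:69202698-69202727 in an intron near the start of MDM2.
p53 ENSG00000284188: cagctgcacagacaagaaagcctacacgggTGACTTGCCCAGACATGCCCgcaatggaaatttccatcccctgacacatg
p53 IER5: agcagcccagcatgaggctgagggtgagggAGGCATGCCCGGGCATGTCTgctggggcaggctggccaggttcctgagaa
p53 FBXO47: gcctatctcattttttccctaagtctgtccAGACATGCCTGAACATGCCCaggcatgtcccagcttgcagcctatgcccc
p53 CDKN1A: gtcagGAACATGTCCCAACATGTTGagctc
p53 MDM2: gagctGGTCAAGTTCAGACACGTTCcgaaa

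Fold enrichment, the summit pileup over the local background as the peak caller gives it, was 18.3 and 38.1 at the FMN2 site in CTCF replicates 1 and 2, and 21.1 and 29.1 at the NEMF site. At the ENSG00000284188 site it was 42.5 and 29.6 in p53 replicates 1 and 2, at the IER5 site 47.0 and 19.7, and at the FBXO47 site 58.3 and 32.0. Of the 8 leading p53 sites, 8 were intergenic and 8 held the p53 motif, at 4.59 to 513 kb from the nearest gene start. Of the 8 leading CTCF sites, 7 were intergenic and 5 held the CTCF motif. The promoter site was that of STUM, 916 bp from its start, and it held no CTCF motif.

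The libraries differed in calling depth and fragment length, and these values touch each result below. The depth at which peaks were called was recovered from the fold and p-values. It was 12.1 and 10.9 M reads for CTCF and 21.4 and 20.1 M reads for p53. The study lists more aligned reads for each library, with the largest excess for CTCF replicate 1, so calling depth is not library size. Fragment length was read as the width of the narrowest peak in each list. It was 190 and 227 bp for CTCF and 147 and 113 bp for p53. Median fold enrichment of the reproducible peaks was 7.20 and 10.5 for CTCF and 12.8 and 8.69 for p53, so the factors overlapped in enrichment. The peaks left out were weaker, with median folds of 6.09 and 7.38 for CTCF (396 and 9200 peaks) and of 6.97 and 6.11 for p53 (902 and 68 peaks). Their part in the results was not tested beyond the values with all peaks, which are given for width, distance to gene starts, promoter and intergenic share, GC content, motifs, spacing and overlap.

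Peak width did not separate p53 from CTCF. CTCF replicates 1 and 2 had median widths of 253 and 370.5 bp and the corresponding p53 replicates of 317 and 191 bp, so both p53 values lay within or below the CTCF range and the groups overlapped. The mean was 254 ± 89.1 bp for p53 and 312 ± 83.1 bp for CTCF (SD, n = 2 libraries each), and the difference of -57.75 bp was smaller than the 126 bp between the p53 replicates (exact two-sided permutation test over the 4 libraries, p = 0.667). With all peaks the medians were 251 and 340 bp for CTCF and 251 and 186 bp for p53. The narrowest peaks were 190, 227, 147 and 113 bp wide in that order, the widths from which fragment length was read above. After subtraction of the narrowest width the difference changed sign to 20.75 bp, and it was 1 bp without CTCF replicate 2 and 5.25 bp without p53 replicate 2.

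Within each library, stronger peaks were wider, and more so for p53. The Spearman correlation of width with fold across peaks was 0.457 and 0.477 in the CTCF libraries and 0.687 and 0.651 in the p53 libraries, as a description over peaks that share a library and its depth. Among peaks with a fold from 7 to 10, median widths were 260 and 352 bp for CTCF and 263 and 174 bp for p53. From 5 to 7 they were 231 and 320 bp for CTCF and 211 and 146.5 bp for p53. The groups overlapped in the first range and not in the second. In the plot of widths the 4 curves interleave.

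**Figure D1:**
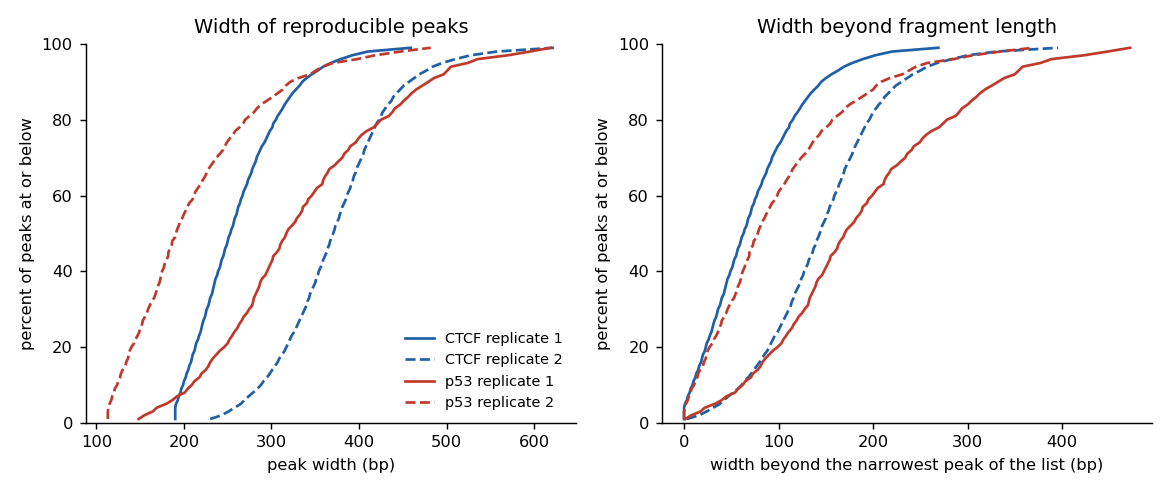
Cumulative distribution of peak width in bp (left) and of width beyond the narrowest peak of the same list in bp (right), as percent of reproducible peaks at or below each value, for CTCF (blue) and p53 (red), replicate 1 solid and replicate 2 dashed. The median widths of 253, 370.5, 317 and 191 bp do not order by factor in either panel.

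Relative to genes, p53 sites lay farther out than CTCF sites. The median distance from summit to the nearest start of a protein-coding gene was 25.1 kb in each CTCF library and 56.4 and 56.3 kb in the p53 libraries, a ratio of 2.25, against 85.3 kb for 56696 evenly spaced genome positions. Between the lower and upper quartile the distances ran from 7.37 to 71.5 kb in CTCF replicate 1 and from 19.4 to 166 kb in p53 replicate 1. The groups did not overlap (exact two-sided permutation test, p = 0.333, the smallest this design allows, and adjusted p = 0.389 over 7 measures). The overlap rule makes both replicates of a factor hold the same sites, so their close values, with SDs of 0.0156 and 0.0771 kb, are no independent measure of error. With all peaks the medians were 25.4 and 30.02 kb for CTCF and 59.4 and 56.3 kb for p53.

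These distances depend on which start counts as that of a gene. Each gene was represented by its outermost annotated start. With the starts of all transcripts, an alternative chosen after the data were seen, the medians were 10.2 kb in both CTCF libraries and 26.7 and 26.6 kb in the p53 libraries, against 39.8 kb for the genome positions. With the starts of all genes, non-coding ones included, they were 9.54 and 9.55 kb for CTCF and 16.1 kb in both p53 libraries, against 21.4 kb for the genome positions. The difference between the factors was then 6.55 kb, down from 31.3 kb. The order of CTCF, p53 and genome was kept under both.

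Promoters, from 1000 bp upstream to 500 bp downstream of a gene start, held 926 of 10950 CTCF summits in replicate 1 (8.46%) and 928 of 10936 in replicate 2 (8.49%). They held 23 of 816 p53 summits (2.82%, exact 95% binomial interval 1.79 to 4.20) and 23 of 817 (2.82%), against 0.94% of the genome positions. The share of p53 was 0.333 times that of CTCF and did not overlap with it (exact two-sided permutation test, p = 0.333, adjusted p = 0.389). With all peaks the shares were 8.39 and 7.76% for CTCF and 1.92 and 2.82% for p53. With the starts of all transcripts they were 15.5% in both CTCF libraries and 7.60 and 7.47% in the p53 libraries, against 3.52% of the genome positions. With the starts of all genes they were 13.4 and 13.3% for CTCF and 6.50 and 6.36% for p53, against 2.97%. Intervals here and below cover counting error alone.

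Away from promoters, introns held 36.4 and 36.5% of CTCF summits and 41.8 and 41.1% of p53 summits, against 41.7% of the genome. Intergenic sequence held 46.9% of CTCF summits in both libraries and 52.1 and 52.0% of p53 summits, against 53.8% of the genome (exact two-sided permutation test, p = 0.333, adjusted p = 0.389). With all peaks the intergenic shares were 46.9 and 46.7% for CTCF and 50.9 and 52.0% for p53. With the promoters and bodies of all genes, non-coding ones included, they were 32.9 and 33.0% for CTCF and 36.8 and 36.7% for p53. The difference was then 3.76 percentage points, down from 5.15. Exons outside coding sequence, which are mostly UTRs and non-coding transcripts, held 5.64 and 5.65% of CTCF summits and 2.57 and 2.82% of p53 summits, against 2.35%. Coding exons held 2.55 and 2.50% of CTCF summits and 0.735 and 1.22% of p53 summits, against 1.21%. In gene context p53 therefore lay close to the genome's own make-up outside promoters, while CTCF was higher in promoters and exons.

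**Figure D2:**
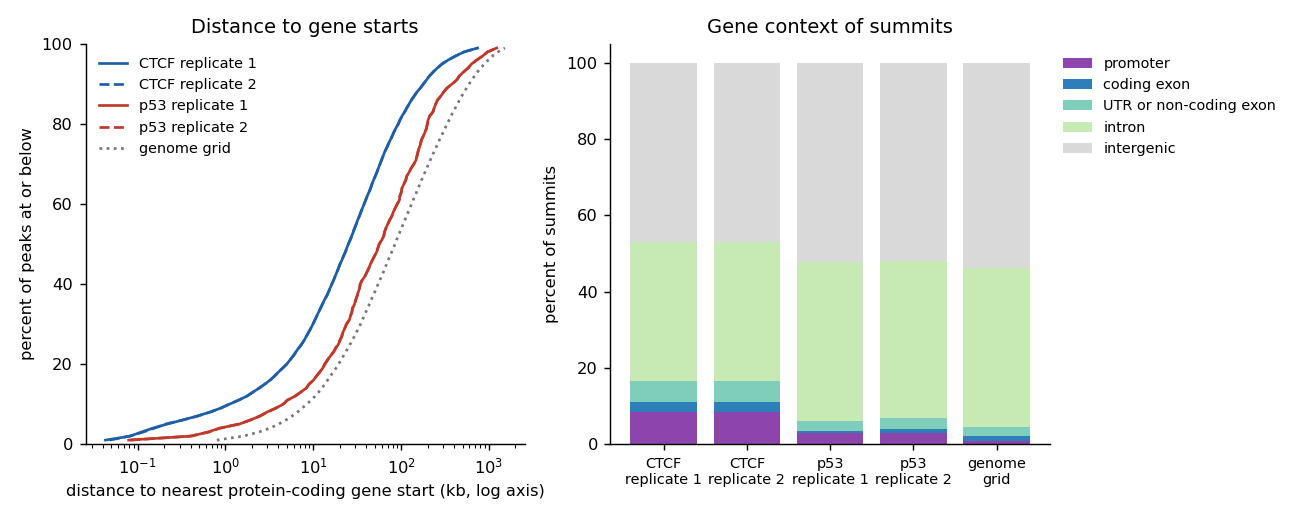
Left, percent of summits at or below each distance to the nearest protein-coding gene start (kb, log axis). Right, percent of summits in each gene context as stacked bars. Both panels show the reproducible peaks of each CTCF and p53 library and an evenly spaced genome grid. The replicates of a factor lie on each other because they hold the same sites, and p53, with a median near 56 kb, lies between CTCF at 25.1 kb and the grid at 85.3 kb.

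The side of the gene start also differed in value. Of the summits within 10 kb of a start, 60.6% (58.9 to 62.3) and 60.5% lay upstream in the CTCF libraries, and 45.4% (36.6 to 54.3) and 43.8% in the p53 libraries, against 48.0% of the genome positions. These rest on 130 p53 summits per library. From 10 to 100 kb the upstream shares were 47.3 and 47.4% for CTCF and 47.6 and 47.5% for p53. The factors gave near-equal values there.

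Sequence under the summits differed in composition. GC content of the 150 bp around the summit averaged 57.6 and 57.5% for CTCF and 49.0 and 48.9% for p53, against 40.9% for the genome positions (exact two-sided permutation test, p = 0.333, adjusted p = 0.389). With all peaks it was 57.5 and 55.2% for CTCF and 47.5 and 49.0% for p53. At 2000 bp to either side it averaged 47.1% in both CTCF libraries and 42.9% in both p53 libraries, so both factors sat on local peaks of GC content. CTCF windows held 5.63 and 5.62 CpG dinucleotides on average, p53 windows 1.94 and 1.92, and genome windows 1.47. Outside promoters the GC content was still 56.7 and 56.6% for CTCF and 48.6 and 48.5% for p53.

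Each factor's motif was found at its own sites and near the genome rate at the sites of the other. The p53 motif, a pair of adjacent half-sites with intact core bases and up to 3 other mismatches, was within 75 bp of the summit at 694 of 816 p53 peaks (85.0%) and 691 of 817 (84.6%). At CTCF peaks it was present at 0.539 and 0.604%, against 0.667% of genome windows of the same length. The CTCF consensus with up to 1 mismatch on either strand was present at 7041 of 10950 CTCF peaks (64.3%) and 7132 of 10936 (65.2%). At p53 peaks it was present at 1.10 and 0.979%, against 0.734% of genome windows. Each list thus carried the motif of the factor it is labelled with. With all peaks the p53 motif was at 80.7 and 81.9% of p53 peaks and the CTCF motif at 63.6 and 57.8% of CTCF peaks.

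The p53 motif sat closer to the summit than the CTCF motif. Its centre was a median of 11 and 13 bp from the summit in the p53 libraries, and the CTCF motif was a median of 23 and 19 bp away in the CTCF libraries. The share with a motif was lower among weaker peaks of both. Each list was split into 4 equal groups by q-value. From the strongest to the weakest group, the p53 motif went from 91.2 to 79.9% in replicate 1 and from 91.7 to 77.9% in replicate 2. The CTCF motif went from 69.6 to 59.4% and from 70.8 to 58.7%. A p53 motif without any mismatch was present at 28.4 and 28.8% of the strongest group and at 12.3% of the weakest group in both p53 libraries.

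**Figure D3:**
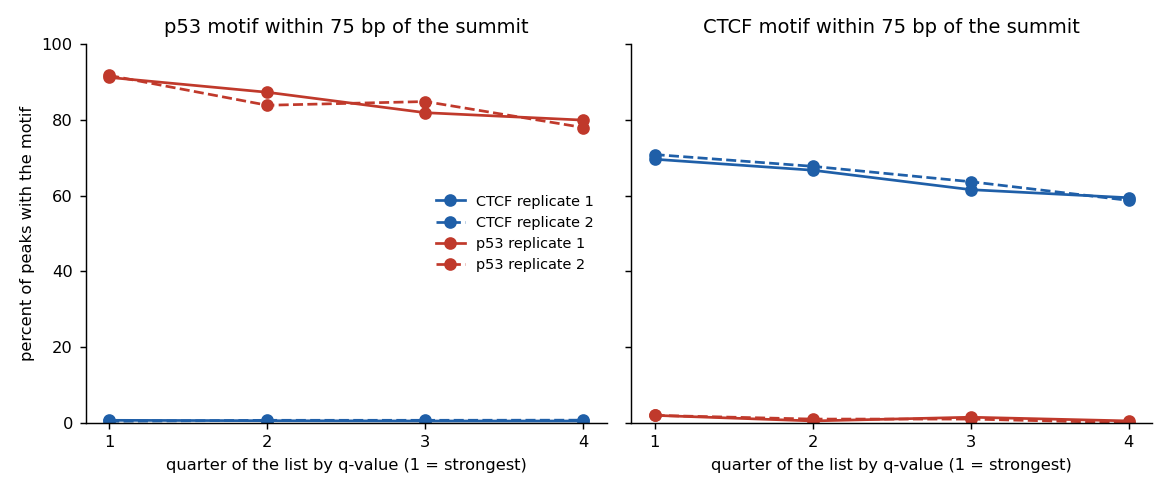
Percent of reproducible peaks with the p53 motif (left) and the CTCF motif (right) within 75 bp of the summit, in 4 equal groups of each list ranked by q-value (1 is the strongest), for each CTCF (blue) and p53 (red) library. Each motif is rarer in group 4 than in group 1 of its own lists and stays near 0 in the lists of the other factor.

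Promoter share did not follow strength in the same way in both CTCF replicates. In CTCF replicate 1 it went from 10.4% in the strongest group to 6.76% in the weakest, whereas in CTCF replicate 2 it was 8.74 and 8.96%. In p53 replicate 1 the groups held 0.980, 3.92, 3.43 and 2.94% promoter peaks from strongest to weakest. In p53 replicate 2 the strongest held 2.44% and the weakest 2.94%. A p53 group has only 204 or 205 peaks, so these shares rest on few promoter peaks and show no trend with strength.

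Along the chromosomes CTCF sites were dense and clustered, and p53 sites sparse and more evenly placed. The median distance between neighbouring summits was 93.8 and 94.2 kb for CTCF and 2.19 Mb in both p53 libraries, a ratio of 23.3 (exact two-sided permutation test, p = 0.333, adjusted p = 0.389). With all peaks it was 91.2 and 60.5 kb for CTCF and 1.05 and 2.05 Mb for p53. List length enters this value directly, so the 816 strongest peaks of each list were compared too. The median was then 1.09 and 1.23 Mb for CTCF and 2.19 Mb in both p53 libraries.

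The median distance over the mean distance does not scale with list length, and would be 0.693 for positions placed independently at an even density. Uneven density and stretches without sequence also lower it, so a lower value alone does not show that sites depend on one another. It was 0.351 and 0.352 for CTCF and 0.620 in both p53 libraries (exact two-sided permutation test, p = 0.333, adjusted p = 0.389). At equal list length it was 0.309 and 0.356 for CTCF and 0.620 for p53, and with all peaks 0.353 and 0.415 for CTCF and 0.622 and 0.616 for p53. Another summit of the same factor lay within 10 kb of 20.6 and 20.4% of CTCF summits and of 2.57 and 2.82% of p53 summits. Unlike the ratio, this share rises with list length. Its level for even placement was not computed, so it does not compare the clustering of the factors.

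**Figure D4:**
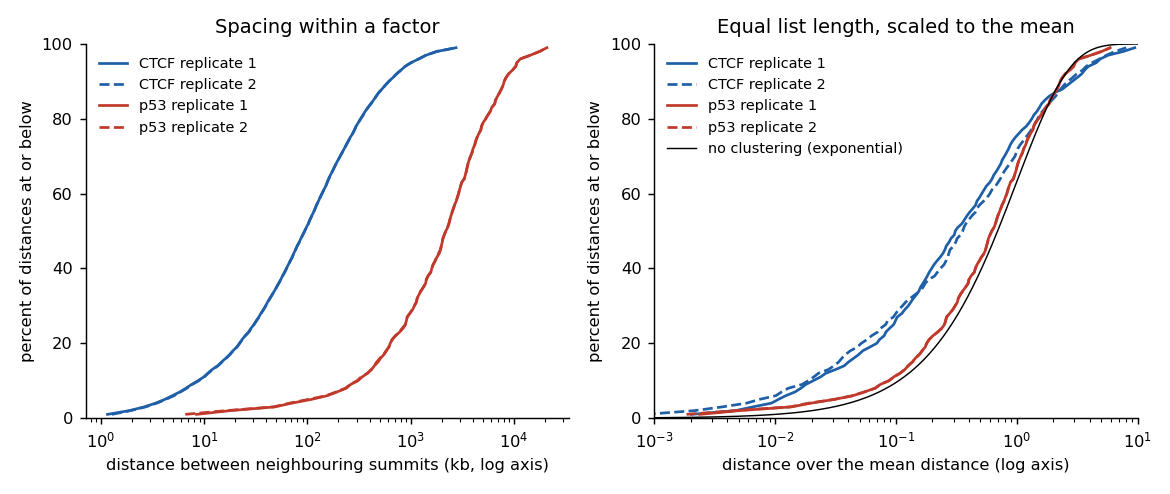
Left, percent of distances between neighbouring summits of the same factor at or below each value (kb, log axis) for the reproducible peaks. Right, the same for the 816 strongest peaks of each list with distances divided by their mean (log axis). The black curve is for positions placed independently at an even density. The p53 curves run close to the black curve and the CTCF curves lie to its left at short distances, with ratios of median to mean of 0.309 and 0.356 against 0.620.

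Individual clusters were chosen after their values were seen. The 100 kb window with most CTCF sites held 10, at chr1:156578062-156675925, over NAXE, HAPLN2, BCAN, NES and CRABP2. The 100 kb window with most p53 sites held 4, at chr6:36576100-36645126, and the only protein-coding gene in it was CDKN1A.

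Site density followed gene density more closely for CTCF than for p53 in value. Over the 23 chromosomes (autosomes and X), CTCF ran from 1.67 sites per Mb on chromosome 4 to 10.2 on chromosome 19, a 6.13-fold range. p53 ran from 0.199 sites per Mb on X to 0.398 on chromosome 17, a 2.01-fold range. Pearson's r with coding genes per Mb was 0.925 for CTCF and 0.631 for p53, and Spearman's rho 0.888 and 0.738, as descriptions over 23 chromosomes that share the same gene counts and 1 genome. Chromosome 4 had 313 CTCF and 46 p53 sites, and chromosome 19 had 571 and 21. Counts ran from 11 to 89 p53 sites and from 113 to 1297 CTCF sites a chromosome. Counting error therefore weighs more on the p53 values, and lists of equal length were not compared here.

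p53 peaks rarely lay on CTCF sites. Only 2 of 816 reproducible p53 peaks of replicate 1 overlapped a reproducible CTCF site (0.245%, exact 95% binomial interval 0.0297 to 0.883), and 2 of 817 in replicate 2. Moved by 10 kb to the left or right, the p53 peaks of replicate 1 gave 3 and 4 overlaps and those of replicate 2 gave 3 and 2. The overlap of reproducible peaks was thus at the level of displaced positions. With the full lists of both factors the share was 0.990 and 1.36%, and displaced positions were not run for these lists. A CTCF summit lay within 1 kb of 7 p53 summits, against 8 and 7 after displacement, and within 10 kb of 80, against 70 and 93.

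Both shared sites are on chromosome 1. One, at chr1:180484938-180485530, is intergenic and 13332 bp from the start of ACBD6, which encodes an acyl-CoA binding protein. The other, at chr1:233088721-233089070, is in an intron of NTPCR, a nucleoside triphosphatase. Their sequences at the p53 summits (chr1:180485371-180485450 and chr1:233088770-233088849, GRCh37) are shown with the p53 motif in capitals, because both held this motif and neither held the CTCF motif at its CTCF summit.
both ACBD6: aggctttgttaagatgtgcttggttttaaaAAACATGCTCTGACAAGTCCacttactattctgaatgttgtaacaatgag
both NTPCR: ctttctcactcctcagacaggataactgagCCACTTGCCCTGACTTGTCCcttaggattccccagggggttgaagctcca

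At the ACBD6 site p53 fold was 14.7 and 3.31 and CTCF fold 4.05 and 10.7, with the summits 306 bp apart. At the NTPCR site p53 fold was 5.18 and 5.42 and CTCF fold 5.70 and 7.46, with the summits 95 bp apart. Except for ACBD6 in p53 replicate 1 and CTCF replicate 2, these folds lay below the medians of their lists. The ACBD6 fold of 3.31 was the lowest of all reproducible peaks of p53 replicate 2, at rank 884 of 885 peaks. The p53 motif had 1 mismatch at ACBD6 and 3, the most allowed, at NTPCR.

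At larger scale the distances between p53 and CTCF are a description. A move of 10 kb is short against them and leaves most values nearly unchanged, so it cannot test placement at this scale. The median distance from a p53 summit to the nearest CTCF summit was 83.3 kb in both libraries, against 85.1 and 82.1 kb when the replicate 1 summits were moved by 10 kb. From CTCF to the nearest p53 summit the median was 968 kb in both libraries. Relative distance runs from 0 at a CTCF site to 0.5 midway between neighbouring CTCF sites. It was below 0.1 for 23.4 and 23.3% of p53 summits, against 23.6 and 23.7% after displacement in replicate 1, and 20% for even placement.

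**Figure D5:**
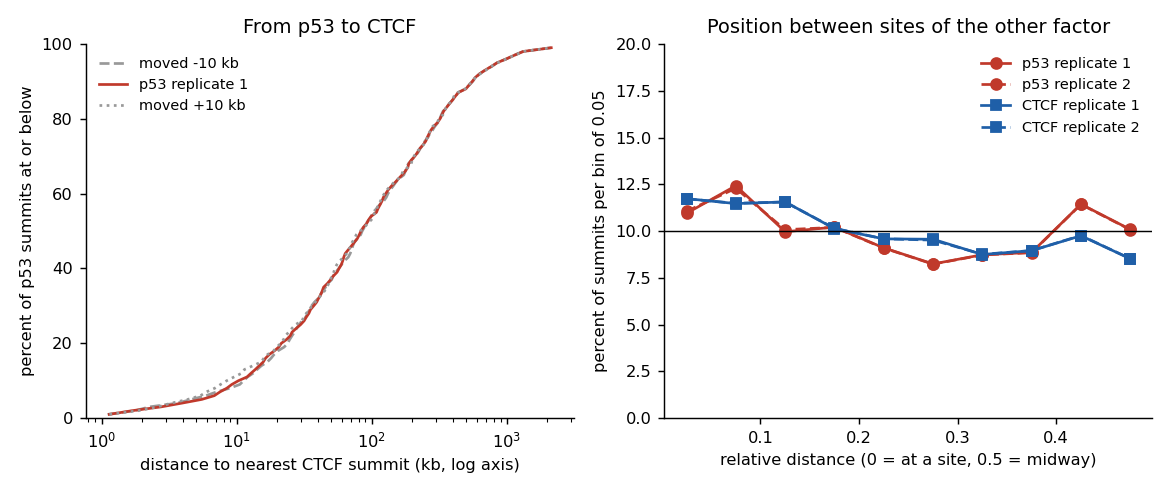
Left, percent of p53 summits of replicate 1 at or below each distance to the nearest CTCF summit (kb, log axis), as found and after moving by 10 kb either way. Right, percent of summits in each bin of relative distance between neighbouring sites of the other factor, for p53 in CTCF intervals (red) and CTCF in p53 intervals (blue), with the even level of 10% as a line. The 3 curves at left nearly coincide, with medians of 83.3, 85.1 and 82.1 kb, against which a move of 10 kb is short.

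The CTCF sites divide the chromosomes into 10912 intervals between neighbours, of which 733 (6.72%) held a p53 site. Intervals with p53 had a median length of 441 kb and the others 84.5 kb, and those with p53 took up 21.7% of the summed length. A longer interval has more room for a site, so this is a description. There were 68 intervals with more than 1 p53 site, and at most 4 lay in one interval. Among the intervals with at least 3, named after their values were seen, the shortest was the 57.1 kb between CTCF summits at chr6:36591356 and chr6:36648411, which holds 3 p53 sites and CDKN1A. A 143 kb interval at NOTCH1, a cell fate receptor, and a 957 kb interval that includes MDM2 held 3 each.

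The CTCF motif has a direction, and loop anchors are known to carry motifs that face each other. Of 7093 sites with the motif, 3521 pointed forward and 3572 in reverse. Pairs were formed between neighbours among these sites alone, so CTCF sites without the motif can lie between them and within the gaps below. The pairs were convergent in 1861 cases and divergent in 1860, counts which alternation along a chromosome keeps nearly equal, and tandem in 3349. Median gaps were 174 kb for convergent pairs, 114 kb for divergent pairs and 146 kb for tandem pairs. Within 10 kb there were 82 convergent and 159 divergent pairs. The p53 motif is a near-palindrome, so no orientation was assigned.

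Known p53 target genes had p53 near their start more often than genes at large. Among 20163 protein-coding genes, 0.794% had a reproducible p53 summit within 10 kb of the start and 18.7% a CTCF summit. Among 25 listed targets, 12 had a p53 summit within 10 kb and 8 a CTCF summit. Within 100 kb the counts were 12 and 20 of 25, against 6.87% and 67.3% of all protein-coding genes. The list was drawn up from known p53 biology, with earlier results of these data known. The p53 summit was nearer than the CTCF summit at 12 of the 25, against 5.82% of all protein-coding genes. Of the 12 target sites, 9 lay within 1 kb of the start and 11 held the p53 motif.

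In the cell cycle arrest group 5 of 7 genes had a p53 site within 10 kb. At CDKN1A the site (chr6:36643903-36644502) had folds of 37.3 and 19.2, ranks 13 and 27 in the lists, and a summit 4 bp from the outermost annotated start. PLK2, a polo-like kinase, had folds of 28.4 and 9.56 at 2138 bp, and PLK3 had 17.6 and 11.1 at 421 bp but no p53 motif. GADD45A, a DNA damage-induced growth arrest gene, had a site of ranks 450 and 470 in an intron at 1574 bp, and CCNG1, which encodes cyclin G1, had folds of 8.36 and 5.93 at 352 bp. BTG2, an antiproliferative gene, had a peak at 1169 bp in replicate 1, whereas the nearest in replicate 2 lay 303 kb away. SFN, which encodes 14-3-3 sigma, had one at 1758 bp in replicate 2 alone.

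In the apoptosis group 3 of 6 genes had a p53 site. AEN, an apoptosis-enhancing nuclease, had folds of 18.9 and 14.7 at 18 bp, BAX, a pore-forming BCL2 family member, 11.8 and 7.56 at 444 bp, and FAS, a death receptor, 11.5 and 4.39 at 663 bp. BBC3, which encodes PUMA, had a p53 peak in each library, at 1400 bp in replicate 1 and at 235 bp in replicate 2, which did not overlap and so were not kept. PMAIP1, which encodes NOXA, had its nearest p53 peak 711 kb away in both libraries.

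Of the feedback regulators, MDM2 had folds of 34.6 and 11.4 in an intron 812 bp from its start, and PPM1D, a phosphatase, had its nearest 245 kb away. Of 4 repair genes, DDB2 alone had a site, with folds of 19.3 and 16.1 at 519 bp. XPC, POLH and FDXR of the repair genes, TP53I3 of the apoptosis list and GLS2 of the metabolism list had no p53 peak within 100 kb in either library. In the group of metabolism and other targets 2 of 6 had a site, ZMAT3 (folds of 17.0 and 11.9 at 2041 bp) and SPATA18 (14.6 and 14.2 at 712 bp). Over the whole list, 10 genes had no peak of either library within 10 kb, which at these depths does not show that p53 was absent there.

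Both factors were within 10 kb at 2 of the 25 targets, CDKN1A and AEN, out of 12 with a p53 site there. Among all protein-coding genes 0.149% had both, which were 30 of the 160 with a p53 site there. The list was chosen for p53, so the counts among genes with p53 are the like comparison. At CDKN1A the CTCF site (chr6:36648207-36648580) lay 4174 bp downstream of the start, in an exon outside coding sequence, with folds of 8.68 and 11.4. At AEN it lay 6599 bp upstream, with folds of 8.60 and 12.5. CTCF sat near the start at SFN (283 bp, folds of 7.03 and 9.47), TIGAR (230 bp, 6.52 and 11.2), PPM1D (1142 bp), TP53I3 (1342 bp), BBC3 (2153 bp) and FDXR (7964 bp), none of which had a reproducible p53 site within 10 kb.

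Loci known for CTCF insulation, imprinted genes and the HOXA and protocadherin clusters, formed a list for CTCF. Of its 8 genes, 3 had a CTCF site within 10 kb and 0 a p53 site, against 18.7% and 0.794% of all protein-coding genes. Within 100 kb, 4 of 8 had a CTCF site, a smaller share than the 67.3% of all protein-coding genes, and 0 a p53 site. IGF2, an imprinted growth factor, had a CTCF site 1757 bp from its start with folds of 4.44 and 10.8, HOXA13 one at 3678 bp with 6.98 and 8.09, and HOXA9 one at 4718 bp with 7.03 and 12.4. MEST and GRB10 had a CTCF peak at 43 and 2445 bp in replicate 2 alone, and H19 one at 1483 bp in replicate 2 alone.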

How the data were processed

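ChIP-seq of CTCF and p53 in parental MCF10A (2 libraries each) was analysed. The 4 lists of cells with H-RAS Gv12 were only counted, and the input samples entered through the peak caller. The authors aligned reads to hg19 with Bowtie, kept unique alignments and called narrow peaks in each library with MACS2 against input, at a q-value of 5%. The deposited lists give per peak a score, a fold enrichment (the ratio of pileup at the summit over background), −log10 p and −log10 q, and the summit. The deposited −log10 q ranked peaks. Read totals are not in the lists used, so calling depth was recovered from the deposited fold and −log10 p (lowest background, genome of 2.7e+09 bp). Since peaks were thresholded, a missing site was not detected at that depth.

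Summits were annotated with GRCh37 and GENCODE release 44 lifted to GRCh37 (20163 protein-coding genes, outermost start). A grid of 56696 positions every 50000 bp gave the genome background. Motifs were searched in 150 bp around summits: p53 as 2 adjacent half-sites of 10 bases with the core C and G intact, CTCF as its 12-base core consensus. Each measure was compared over libraries by an exact two-sided permutation test (6 assignments, smallest p 0.333), Benjamini-Hochberg adjusted over 7 measures. Intervals are exact (Clopper-Pearson) at 95%. Named sites were the 8 with the smallest summed rank per factor and the sites of both factors. The members and gene lists were chosen with earlier results of these data known. Alternatives were all peaks, −log10 q of 5 or more, 50% reciprocal overlap, equal list length, the value of each library left out, other gene starts, promoters and windows, and the replicate block. The code was tested on simulated data. Python 3.11.15, NumPy 2.4.6, pandas 2.3.3, SciPy 1.17.1, pysam 0.24.0 and samtools 1.23.1 were used.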

Additional observations from a re-analysis of the deposited data

How the results depend on the processing

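The difference between p53 and CTCF (p53 minus CTCF) kept its direction under every alternative run for distance to gene starts, promoter share, intergenic share, spacing, spacing ratio and GC content. No alternative could pass a threshold of 0.05 with 2 libraries a factor. Leaving out a library removed only its value, while its peaks still chose those of the other replicate. For these measures such runs are therefore no independent check of direction. Median peak width reversed from -57.75 bp to 1 bp without CTCF replicate 2, 5.25 bp without p53 replicate 2 and 20.75 bp beyond the narrowest peak.

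Leaving out each library in turn gave differences of -120.75 to 5.25 bp in width, 31199.5 to 31308.5 bp in distance to gene starts, -5.67 to -5.64 percentage points in promoter share, 5.12 to 5.19 in intergenic share and -8.63 to -8.53 in GC content. Spacing differed by 2094900 to 2100140 bp and the spacing ratio by 0.268 to 0.269. The p53 motif share was 84.6 to 85.0%, the CTCF motif share 64.3 to 65.2%, p53 overlap with CTCF 0.245%, and the relative distance share 23.3 to 23.4%. These ranges are narrow because both libraries of a factor hold the same sites, and the overlap rule was not redone without the library left out.

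Among p53 peaks, the share that overlapped CTCF moved from 0.245% to 1.17% with all peaks, 0.141% at −log10 q of 5 or more, 0.329% with reciprocal overlap, 0% at equal list length, 0.857% for summits within 1000 bp and 0.980% with CTCF peaks of either library. The share of p53 at relative distance below 0.1 was 22.9% with all peaks, 24.3% at −log10 q of 5 or more, 24.1% with reciprocal overlap, 23.9% at equal list length and 23.4% with CTCF peaks of either library. The p53 motif share was 81.3% with all peaks, 86.1% at −log10 q of 5 or more, 85.2% with reciprocal overlap, 86.7% in 300 bp windows and 72.2% with at most 2 mismatches. The CTCF motif share was 60.7% with all peaks, 65.4% at −log10 q of 5 or more, 71.1% at equal list length, 67.6% in 300 bp windows and 24.6% with no mismatch. The cause of these shifts was not tested.

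With the replicate number as a block the mean difference in width stayed at -57.75 bp, from 64 bp in pair 1 and -179.5 bp in pair 2, and the smallest possible p was 0.5 for the other measures. Shared numbers are the only link between the pairs. A planned comparison of repeat sequence was not run, because the reference used carries no repeat marks, so p-values were adjusted over 7 measures.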
